A study of Oreochromis niloticus with 21 samples.

Results

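The genes described here were those read mainly in the liver of the Nile tilapia (Oreochromis niloticus). Their liver level was not at least 2-fold lower at both cold temperatures, though some were lower at 1 of them. Levels are RPKM, that is reads divided by the length of the gene and by a library size, which differed from the total reads on genes. A gene was liver-enriched where log2(mean RPKM + 1) over the 3 liver libraries was at least 2 above the highest of the other 6 tissues and its mean liver RPKM was 5 or more. Of 17098 genes, 531 met this. A liver-enriched gene was kept here unless log2(RPKM + 1) in liver was lower by 1 or more at both 18 and 10 °C than at 28 °C. This left 244 members, or 46.0% of the liver-enriched genes, and the other 287 form the comparison list called lower at both. The members were chosen by the measured RPKM of these same libraries, so their liver enrichment and their liver differences against 28 °C are a description without a test.

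Fish of 6 months were kept for 12 h at 28, 18 or 10 °C and then killed. The liver and 6 other tissues (kidney, spleen, gill, brain, heart and muscle) were sequenced from total RNA, with 1 library for each tissue and temperature and 21 in all. The number of fish behind a library, and whether tissues came from the same fish, are not in the labels, so temperature and fish cannot be told apart. The labels name no strain or sex.

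The liver makes most of the proteins of blood plasma, handles lipids, bile and amino acids, and stores and releases glucose. In tilapia, as in many teleosts, strands of exocrine pancreas lie within it. A fish's body follows the temperature of its water, so cooling acts on the liver directly. The gene IDs are Ensembl IDs, and 0 of 17098 matched the RefSeq table used here. Genes therefore appear by ID, no role is given to any of them, and the liver label was not checked against named markers.

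The reads behind the RPKM values could be recovered (1 RPKM value is a whole number of reads over length and library size) and ranged from 248860 to 3560372 per library. The 28 °C liver library held 1492941 reads, the 18 °C library 453672 and the 10 °C library 474522. The liver library at 28 °C stood apart from the other liver libraries, with a summed RPKM over all genes of 1028630 against 276809 at 18 °C and 335145 at 10 °C. Both liver comparisons with 28 °C rest on that library. Reads on genes were 1.41 times the library size used at 28 °C, 0.511 times at 18 °C and 0.573 times at 10 °C. The summed RPKM depends on that ratio, and how the size was set is not given in the sources used here. In whole tissue, fewer cells of a type and less RNA per cell cannot be told apart.

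The members ranged widely in level. Mean liver RPKM ran from 5.13 to 7761 with a median of 62.3, and 100 members reached 100 and 17 reached 1000. The highest mean belonged to ENSONIG00000010186, with an RPKM of 6117 at 28 °C, 8449 at 18 °C and 8717 at 10 °C, from 8350, 9668 and 9315 reads. Outside the liver this gene did not pass an RPKM of 4.94 in any library. The next, ENSONIG00000016677, had 6402, 5463 and 9138 in liver. Its brain libraries gave 54.8, 70.0 and 17.4, the clearest signal it had elsewhere. Both genes therefore stayed within 2-fold across the liver libraries.

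**Figure D1:**
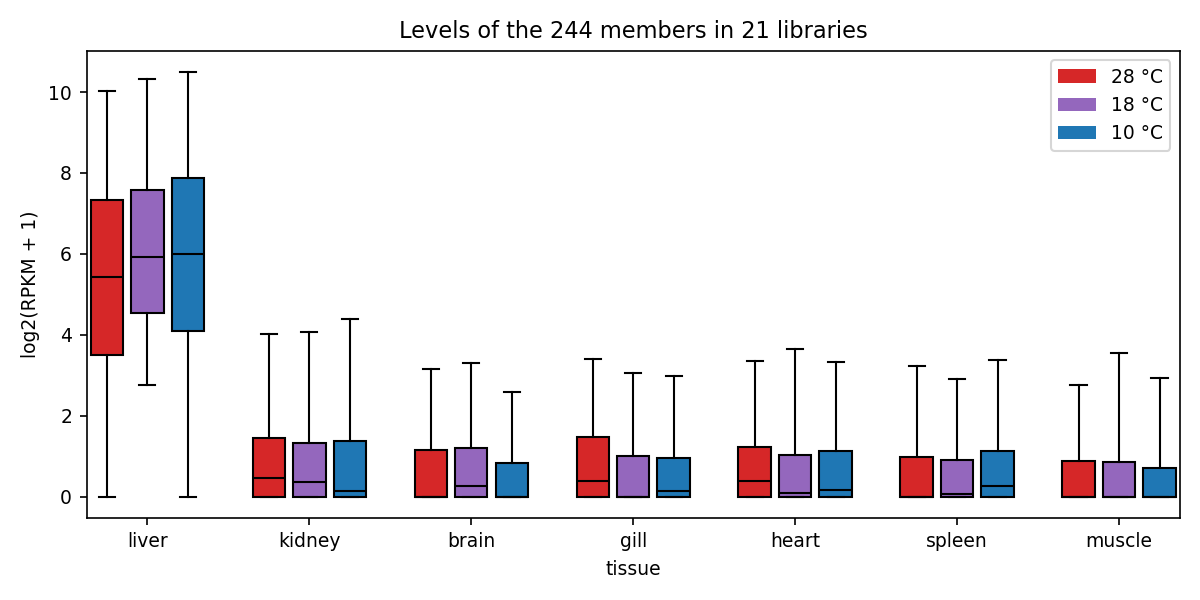
Levels of the 244 members in the 21 libraries, as log2(RPKM + 1) on the vertical axis and tissue on the horizontal, with 1 box for each temperature. Boxes span the quartiles with the median as a line, and whiskers end at the 5th and 95th percentiles, with members beyond them not drawn. The liver boxes stand above all others, which the choice of members sets, and in the 18 other libraries the upper quartile lies between an RPKM of 0.632 and 1.75.

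The members took a larger part of the liver reads in the cold libraries. Their share of reads was 11.7% (95% exact binomial interval 11.7 to 11.8) in the 28 °C library, 33.3% (33.2 to 33.5) in the 18 °C library and 37.6% (37.5 to 37.7) in the 10 °C library. These intervals cover counting error only. The list lower at both took 60.0%, 21.4% and 20.4%. The choice of members placed the liver-enriched genes that fell in the cold in that list, and so largely sets these opposite directions. It bears in the same way on the summed RPKM and the ranks given below. All other genes together also took a larger share in both cold libraries than at 28 °C. A larger share in the cold is therefore not particular to the members. A share moves with everything else in the library, and the members' summed RPKM moved less, being 72055 in the 28 °C library, 79553 in the 18 °C library (1.10 times as much) and 102323 in the 10 °C library (1.42 times as much). The summed RPKM of the list lower at both was 677407, 82054 and 90626. Among the 20 genes of highest RPKM in liver, 1 was a member at 28 °C and 9 were members at 18 °C and at 10 °C. In the 18 libraries of other tissues the members took 0.0840% to 1.22% of reads.

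**Figure D2:**
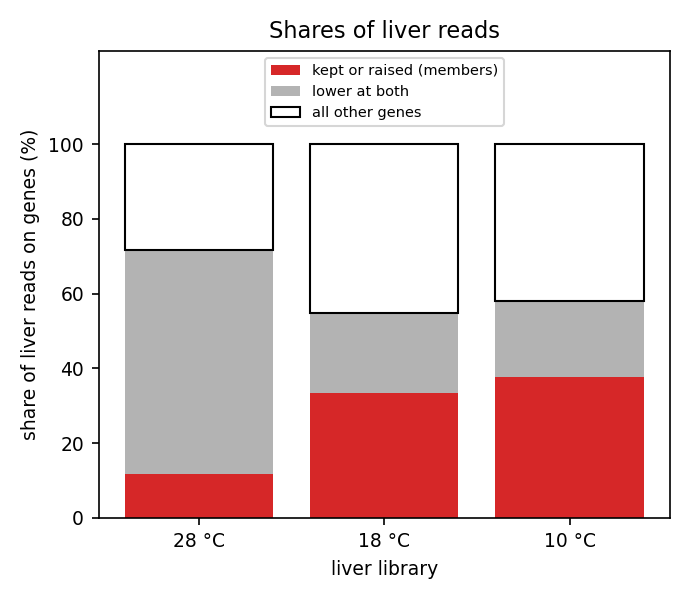
Share of liver reads on genes (percent, vertical axis) in each liver library (horizontal axis), split into members, liver-enriched genes lower at both cold temperatures, and all other genes. The members' share is 11.7%, 33.3% and 37.6% at 28, 18 and 10 °C. The choice of members largely sets the opposite directions of the members and the list lower at both. The share of all other genes is also larger at 18 and 10 °C than at 28 °C.

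The smallest margin over the next tissue was 2.01 on the log2 scale, and the nearest gene outside had 1.999, with 15 members under 2.1 and 7 genes outside between 1.9 and 2. The lowest mean liver RPKM inside was 5.13 and the highest outside was 4.36, with 6 members under 6. For the cold limit, the value nearest to it was -0.996 inside and -1.01 outside, with 5 members and 7 other genes within 0.1 of it.

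On the deposited RPKM scale the median member differed little between the liver libraries. The median liver RPKM was 41.8, 59.5 and 62.8 at 28, 18 and 10 °C. The log2 difference from 28 °C had a median of 0.19 in the 18 °C library and 0.10 in the 10 °C library, while all genes with a mean liver RPKM of 5 or more had -0.55 and -0.60. The choice of members, which left out genes lower at both temperatures, sets this gap. Scaled to each library's total reads on genes instead, the members' medians were 1.53 and 1.31 and those of the background 0.74 and 0.51, so the size for the members and the direction of the background depend on the scaling.

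Sorted by whether they differed 2-fold from 28 °C, the members fell into several profiles. The largest held 103 genes within 2-fold at both temperatures, with median RPKM of 78.9, 82.9 and 86.3 at 28, 18 and 10 °C. In 50 genes the level was higher at both, with medians of 14.2, 129 and 136. In 20 it was higher at 10 °C alone (73.2, 88.8 and 167). In 27 it was higher at 18 °C alone, where the medians were 0, 32.2 and 0. In 29 it was lower at 18 °C alone (53.4, 22.2 and 42.1), in 11 lower at 10 °C alone (30.4, 24.2 and 10.0), and 4 were mixed. Of the 50 genes higher at both, 37 were also higher at 10 than at 18 °C, and 12 had under 10 reads at 28 °C, where a fold is poorly fixed. Another 3 counts of under 10 reads were at 10 °C and 1 was at 18 °C, so for those genes the higher level there rests on few reads.

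**Figure D3:**
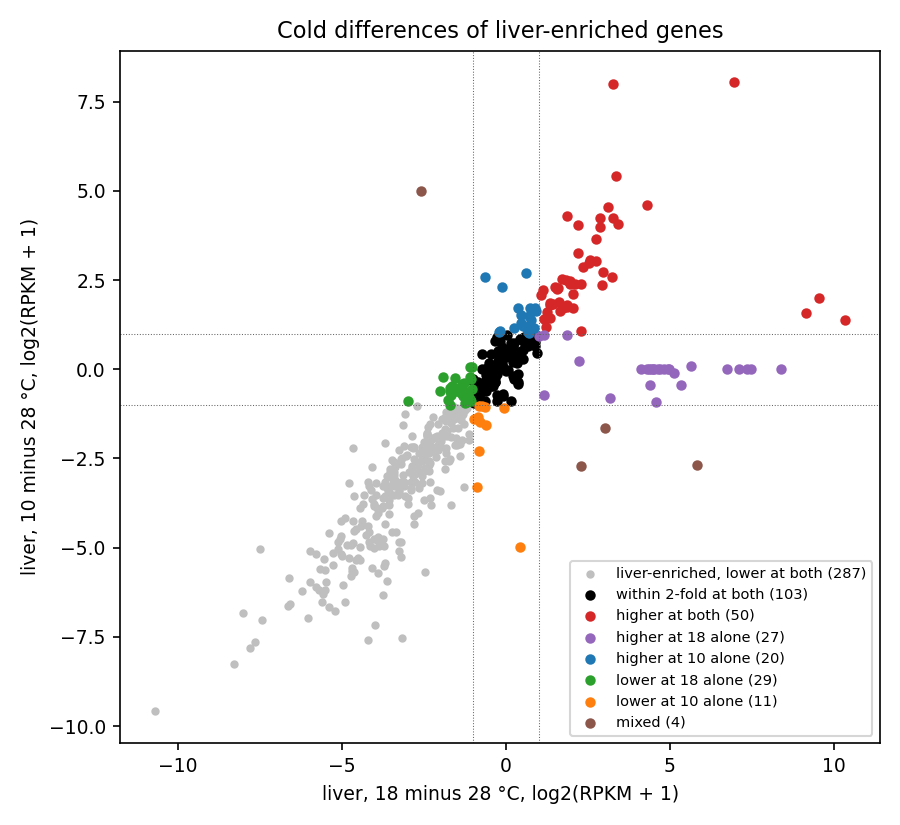
Liver difference at 18 minus 28 °C (horizontal axis) against that at 10 minus 28 °C (vertical axis), both in log2(RPKM + 1), for the 531 liver-enriched genes. Each point is 1 gene, coloured by profile, dotted lines mark a 2-fold difference, and both axes use the same 28 °C library. The 27 members higher at 18 °C alone form a row near 0 on the vertical axis, and the 50 higher at both fill the upper right.

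At 10 against 28 °C, 217 members reached an RPKM of 5 in either library. Of these, 68 were at least 2-fold higher, against 20.9% of all 4419 genes counted in the same way, and 13 were at least 2-fold lower, against 44.6%. The choice of members used this contrast, so nothing is read from these counts. The highest difference was that of ENSONIG00000021006, with 3 reads at 28 °C, 374 reads (RPKM 744) at 18 °C and 746 reads (RPKM 1588) at 10 °C. It was higher in both cold libraries, and outside the liver it did not pass 0.468. ENSONIG00000000044 had 3.75, 44.7 and 1222, from 1, 10 and 255 reads. The exact interval of its ratio at 10 against 28 °C ran from 57.9 to 12916, so its size is poorly fixed. At the other end, ENSONIG00000019912 had 30.4, 41.2 and 0, from 22, 25 and 0 reads, and ENSONIG00000002204 had 28.8, 15.3 and 2.04.

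At 18 against 28 °C, 242 members were counted, and 80 were at least 2-fold higher (21.7% of all genes counted) and 30 at least 2-fold lower (42.4%). ENSONIG00000005103 had 0, 2596 and 3 reads at 28, 18 and 10 °C, that is an RPKM of 0, 1303 and 1.61. ENSONIG00000007548 had 0, 752 and 3.03. Both were high in 1 library alone. The lowest differences were those of ENSONIG00000010382, with 392, 48.5 and 213, and ENSONIG00000003615, with 14.7, 1.59 and 502.

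These splits moved under some other scalings. Scaled to total reads on genes, 137 members were at least 2-fold higher (38.8% of all genes under that scaling) and 5 lower (21.9%) at 10 against 28 °C. At 18 against 28 °C, 163 were higher (43.2%) and 2 lower (17.3%). With each liver library centred on its median gene, the counts were 106 higher (30.8% of all genes) and 5 lower (33.5%) at 10 °C, and 107 higher (31.4%) and 11 lower (31.6%) at 18 °C. Of the members called on RPKM, the exact interval of the read ratio left out 1 for 68 higher and 12 lower at 10 °C, and for 78 higher and 29 lower at 18 °C. That interval was set against a ratio of 1 and not of 2, so it does not show how counting error bears on the 2-fold limit.

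The comparison of 10 with 18 °C leaves out the 28 °C library, although both of its libraries also entered the choice of members. Of 243 members counted, 31 were at least 2-fold higher at 10 °C, or 12.8%, against 9.19% of all genes counted. Another 36 were at least 2-fold lower, or 14.8%, against 13.6%. The shares lie near the background in both directions. Scaled to total reads on genes, 19 were higher (6.20% of all genes) and 38 lower (15.5%). The median member was higher by 0.30 on the log2 scale, against -0.01 over all liver-expressed genes, and 162 of the 244 were above 0. How many of all liver-expressed genes lay above 0 was not counted, so nothing is read from that count. With levels scaled to total reads on genes, the 2 medians were 0.14 and -0.15. Each median thus depends on the scaling, while the gap between them changed little. That gap was not tested. The highest difference was that of ENSONIG00000003615, described above, and the lowest those of ENSONIG00000005103 and ENSONIG00000013737. The last had an RPKM of 23.7 at 28 °C, 1403 at 18 °C and 2.81 at 10 °C.

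A group of members was read almost only in the liver library at 18 °C. It was picked out after its values were seen. With an RPKM of 5 or more at 18 °C and at least 8-fold above both other liver libraries, it held 27 of the 231 members at that level, and 2.32% of all genes at that level did the same. A gene high in 1 cold liver library alone can enter the members through that library. The choice of members thus favours this pattern, and nothing is read from the excess over all genes. Of the 27, 22 belong to the profile higher at 18 °C alone, 3 to that higher at both and 2 to the mixed one. The fewest reads behind a member at 18 °C were 2, too few to fix a fold. At 28 °C 0 members did so (10.3% of all genes), since the choice of members leaves such genes out, and at 10 °C 2 members did (0.292%). The RPKM of the 27 at 18 °C ran from 16.4 to 1403 with a median of 42.6, and 16 of them had 0 reads in both other liver libraries. Together they held 7920 reads at 18 °C, or 1.75% of that library, against 68 at 28 °C and 18 at 10 °C. They did not pass an RPKM of 16.6 in any other tissue. With 1 library at 18 °C, the temperature and the fish or tissue piece behind it cannot be told apart.

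**Figure D4:**
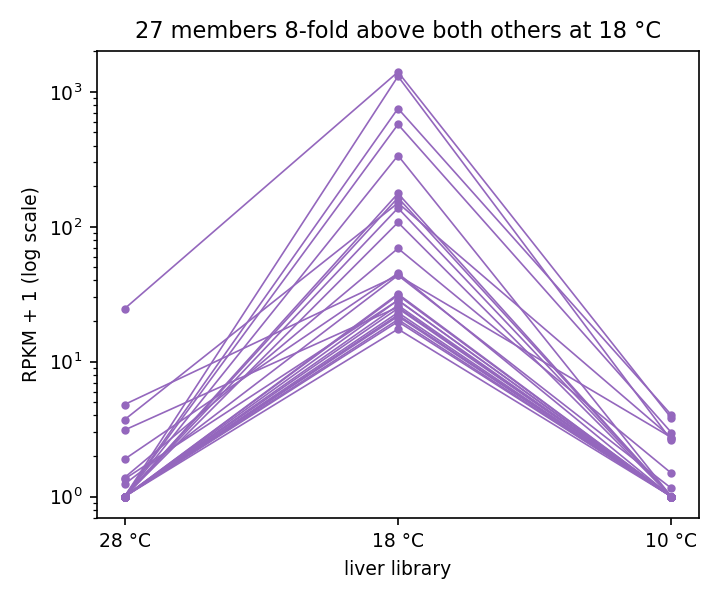
RPKM + 1 on a log axis (vertical) in the 3 liver libraries (horizontal) for the 27 members at least 8-fold above both other liver libraries at 18 °C. Each line is 1 gene, and the peak at 18 °C, from 16.4 to 1403 RPKM, was the condition for showing it.

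Members were longer than the liver-enriched genes that were lower at both. The rule set no limit on length, but its limits are on RPKM, which is divided by length. Length was therefore not independent of the choice. The length implied by the RPKM values had a median of 2111 bp in members (quartiles 1314 and 3237) and 1503 bp in the other list (926 and 2432). All genes with a mean liver RPKM of 5 or more had a median of 2139 bp, and all genes had 2646 bp. The members thus lay near the liver-expressed genes, and the other list was shorter than these. No test was run on these differences.

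Outside the liver the members were low. Of the 244, 75 had no library of another tissue at an RPKM of 1, and 9 were at 0 in all 18. At the other end, 16 reached 1 in every one of the 18. The tissue next to liver was kidney for 65 members, gill for 47, heart for 34, spleen for 31 and muscle for 19. Brain was counted for 48, but these include the 9 at 0 in all 18, which have no next tissue. Brain is therefore not ranked against gill.

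The comparisons outside the liver used the 18 other libraries alone. They are not independent of the choice of members, which had set the highest of these tissue means against the liver level. A gene entered where 3 or more of these libraries had an RPKM of at least 1, as 115 members and 14953 genes in all did, and the 129 members below it are not covered. A gene can pass through the 3 libraries of 1 tissue, and such a gene had to be higher there, so the counts of members are a description. limma compared each tissue with the average of the other 5 on log2(RPKM + 1), with Benjamini-Hochberg adjustment over all genes and a threshold of 0.05. The 3 libraries of a tissue come from 3 temperatures and are not replicates of 1 condition.

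Kidney was the tissue in which members most often passed as higher. There 36 of the 115 were higher (31.3%), against 13.7% of all genes, and 8 were lower (6.96%), against 15.0%. Of the 36, 10 passed the filter only with the kidney libraries. With no filter on low values, 44 of 235 members were higher in kidney (18.7%), against 12.9% of all genes, so the excess was smaller. A filter that asked for RPKM 1 in every tissue at some temperature left 29 members. Of these, 9 were higher in kidney (31.0%), against 7.83% of all genes. The size of the excess thus depends on the filter. Of the list lower at both, 50 of 185 tested (27.0%) were higher in kidney, so the kidney count was also above the background in the liver-enriched genes that were not members. ENSONIG00000021428 had a kidney RPKM of 71.3, 42.0 and 55.4 at 28, 18 and 10 °C and did not pass 1.05 in the other 5 tissues. All 3 kidney libraries lay above every library of the other tissues outside the liver. Since it passed the filter only with the kidney libraries, no p-value is given for it. ENSONIG00000013085 had 23.4, 38.5 and 65.0 in kidney, a difference of 4.76 (SE 0.48, limma adjusted p = 1.41e-06). In liver it had 23.9, 181 and 472.

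In spleen, 14 members were higher (12.2%, against 10.1% of all genes) and 22 lower (19.1%, against 21.1%), both near the background in the main fit. With no filter on low values, 17 of 235 were higher (against 9.03%) and 20 lower (against 17.9%). With RPKM 1 asked for in every tissue at some temperature, 0 of 29 were higher (against 9.01%) and 8 lower (27.6%, against 5.57%). The spleen counts thus also depend on the filter. ENSONIG00000011424 reached 444, 109 and 231 in spleen, and its liver values were 1869, 765 and 1442. Both tissues were lowest at 18 °C. The spleen difference was 6.62 (SE 0.54, limma adjusted p = 1.81e-06). ENSONIG00000003237 had 166, 48.0 and 61.3 in spleen and 1024, 415 and 604 in liver, again with the lowest value of both tissues at 18 °C.

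In brain, 15 members were higher (against 19.6% of all genes) and 26 lower (22.6%, against 18.5%). With median-of-ratios size factors the split was 19 higher and 21 lower. The split of all genes moved the same way. It was 2927 higher and 2766 lower of 14953 in the main fit, and 3293 and 2426 of 14942 with those factors. ENSONIG00000016677, the member of second highest liver level, was higher in brain by 3.97 (SE 0.43, limma adjusted p = 2.01e-06). ENSONIG00000008332 had 9.44, 14.1 and 22.6 in brain, and it too passed the filter only with the libraries of that tissue. In gill, 16 members were higher (against 16.9% of all genes) and 18 lower (against 19.3%). In heart, 8 were higher (against 8.38%) and 7 lower (against 14.0%). In muscle, 6 were higher (against 11.8%) and 25 lower (against 27.9%).

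**Figure D5:**
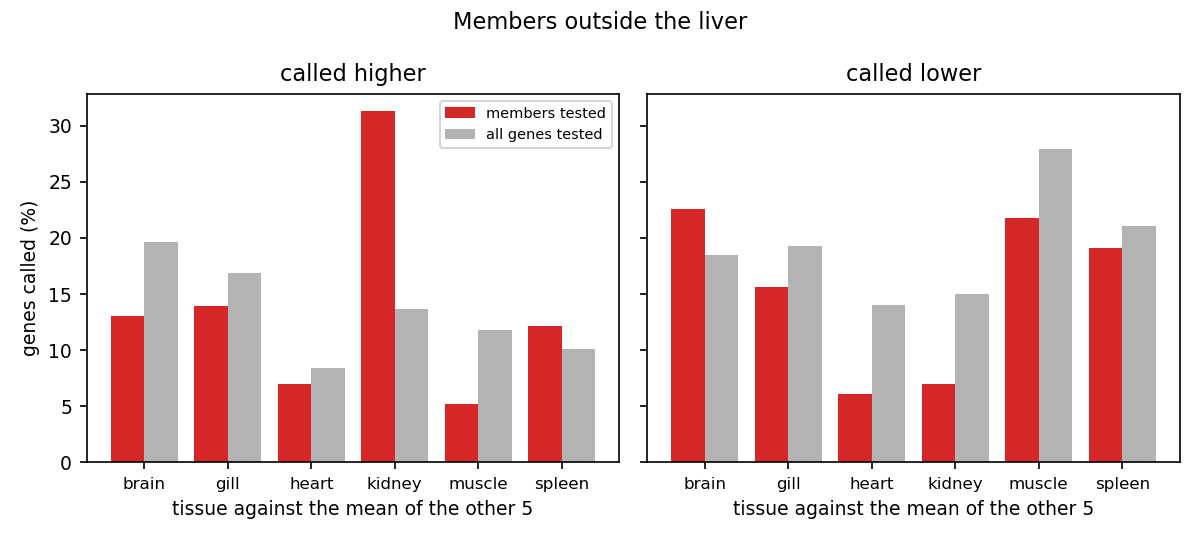
Percent of genes called higher (left) and lower (right) in each non-liver tissue against the mean of the other 5, by limma at an adjusted p of 0.05, for the 115 members tested and for all 14953 genes tested. In kidney 31.3% of members were higher against 13.7% of all genes, and 10 of these 36 members passed the filter only with the kidney libraries.

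No temperature difference of the members was detected outside the liver. With tissue as a block in limma, 0 genes passed at 10 against 28 °C, at 18 against 28 °C or at 10 against 18 °C (0.0% of all genes in each), with smallest adjusted p-values of 0.286, 1.00 and 0.849. At an unadjusted p under 0.05, 913 genes (6.11%), 592 (3.96%) and 716 (4.79%) passed, and among the members 5, 6 and 1. limma-voom on the recovered reads called 0, 0 and 1 genes and 0 members. The members' median difference at 10 against 28 °C was -0.10, against -0.06 over all genes tested. The tissues stand in for replicates here, so a difference in 1 tissue alone would not pass.

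Among tested members that reached an RPKM of 5 in a library outside the liver, the highest difference at 10 against 28 °C was that of ENSONIG00000011790, at 1.42 (SE 0.54, limma adjusted p = 0.808), higher in 4 of 6 tissues. Its kidney values were 2.01, 6.53 and 34.5, and in liver it had 6.88, 67.3 and 185. The lowest was that of ENSONIG00000005749, at -1.28 (SE 0.57, limma adjusted p = 0.808), lower in 6 of 6 tissues. ENSONIG00000017770 was at -1.01 (SE 0.27, limma adjusted p = 0.555), also lower in 6 of 6, while its liver values of 55.7, 72.5 and 51.2 stayed within 2-fold.

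Within single tissues, the members were counted where either library of a pair reached an RPKM of 5, on 1 library a side and so without a test. At 10 against 28 °C, kidney had 10 of 49 members at least 2-fold higher (8.07% of all genes) and 7 lower (13.7%). Heart had 6 of 30 higher (4.85%) and 4 lower (10.5%), and muscle 5 of 25 higher (17.2%) and 3 lower (14.5%). Spleen had 8 of 29 higher (22.6%) and 6 lower (20.3%), gill 2 of 31 higher (16.2%) and 14 lower (20.4%), and brain 4 of 28 higher (20.4%) and 11 lower (33.2%). Lower members outnumbered higher ones in gill and in brain, and the reverse held in kidney, heart, muscle and spleen. All genes leaned the same way in gill, brain, muscle and spleen, so the direction there is not particular to the members. In kidney and heart all genes leaned to lower. The members counted are few, and no test was run on these directions. At 18 against 28 °C, kidney had 8 of 48 higher (7.54%) and 9 lower (17.2%), and heart 12 of 33 higher (35.0%) and 6 lower (21.1%). Muscle had 10 of 28 higher (17.9%) and 3 lower (17.1%), and spleen 5 of 26 higher (15.7%) and 11 lower (16.2%). Gill had 2 of 30 higher (17.0%) and 12 lower (19.1%), and brain 1 of 27 higher (2.98%) and 2 lower (1.49%). Lower members outnumbered higher ones in gill and in spleen at 18 °C, and narrowly in kidney and in brain. Higher members outnumbered lower ones in muscle and in heart. The heart shares of members (36.4% higher, 18.2% lower) lay near those of all genes. All genes leaned the same way as the members in every tissue but brain, so the sign alone is not particular to the members. The size of the lean differed, and all genes were close to even in muscle and in spleen. Of the members, 40.0% were lower in gill, 42.3% in spleen and 18.8% in kidney, and 35.7% were higher in muscle. These sizes were not tested.

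The members that were higher in the cold liver libraries were described in the other tissues by profile. Of the 50 higher at both in liver, 25 were tested outside it, with a median difference of 0.09 at 10 against 28 °C and 14 above 0, and of -0.01 at 18 against 28 °C with 12 above 0. Of the 20 higher at 10 °C alone, 14 were tested, with a median of -0.15 at 10 against 28 °C and 6 above 0. Of the 27 higher at 18 °C alone, 5 were tested. Their median was 0.02 at 18 against 28 °C with 3 above 0, and -0.07 at 10 against 28 °C with 2 above 0. Of the 103 within 2-fold, 51 were tested, with a median of -0.10 at 10 against 28 °C and 20 above 0. No test was run between these profiles.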

How the data were processed

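The deposited tables give RPKM by Ensembl gene ID, per the file headers. Per the submitters' processing notes, the tools were HTSeq, TopHat and Bowtie. Versions, build and annotation: not given in the sources used here. Reads were recovered from the RPKM values as whole multiples, within 0.001, for 17095 genes, with 3 unsolved, and were used for depth, read shares and intervals. The library size by which reads had been divided was 2.29 to 2.73 times the trimmed-mean (TMM) size of the library. The members, lists and comparisons were chosen with earlier results of these data known. A pseudocount of 1 was added before log2, so differences of low genes are understated. limma 3.58.1 (R 4.3.3) was fitted to the 18 non-liver libraries, after the script was tested on simulated data. Two-sided p-values were adjusted over all genes. Tissues stood in for replicates, so p-values do not measure spread between fish. Named genes were the highest mean liver levels and the highest and lowest differences, at most 2 each way in a comparison. Marker lists written as symbols were not tested. Alternatives changed the pseudocount, filter, scaling, thresholds, model and libraries.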

Additional observations from a re-analysis of the deposited data

Results flagged for a closer look

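In heart, ENSONIG00000003715 had an RPKM of 0 at 28 °C, 233 at 18 °C and 2.41 at 10 °C. Its heart difference was 7.87 on the log2 scale at 18 against 28 °C and -6.10 at 10 against 18 °C, each far from those of the other 5 tissues by Dixon's criterion. These were the 2 that stood out of 15 sets of 6 values. Both rest on the same value, that of the heart library at 18 °C, which also led to the gene being named, so the rate of about 1 in 20 that chance gives does not apply to them. Whether that library alone accounts for the values was not tested.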

How the results depend on the processing

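The number of members, 244, was 151 with a tissue margin of 3 and 383 with liver libraries centred on the median gene. Scaled to total reads on genes, the rule chose 209 genes, and only 154 of them were members (63.1% of the 244). With TMM factors it chose 243 genes, of which 236 were members (96.7% of the 244). With median-of-ratios size factors it chose 266, of which 240 were members (98.4%). The list thus changed little under those factors, and more when scaled to total reads or centred. Members 2-fold higher at 10 against 28 °C numbered 75 with TMM factors and 63 with median-of-ratios size factors, against 68 on RPKM. They numbered 106 centred and 137 scaled to total reads. Those lower were 9 with TMM factors and 16 with median-of-ratios size factors, against 13 on RPKM, and 5 and 5 centred and scaled to total reads. At 18 against 28 °C, 163 were higher scaled to total reads, and 11 (centred) or 2 (total reads) were lower. At 10 against 18 °C, 19 were higher scaled to total reads. That scaling was chosen after seeing the data. limma-voom called 1 gene at 10 against 18 °C, and 18 members in muscle against 31. The fall in muscle was general. Of all 14953 genes, those called lower there went from 4167 to 1544, and those called higher from 1757 to 1744. A filter that asked for RPKM 1 in every tissue at some temperature tested only 29 members and called 7 in brain (16.7% of all genes), 7 in gill (21.9%), 1 in heart (5.83%), 10 in kidney (11.2%), 6 in muscle (28.3%) and 8 in spleen (14.6%). ENSONIG00000019120 at 10 against 18 °C turned to 0.25 without brain at 10, heart at 18 and gill at 28 °C (limma adjusted p = 0.993). The causes were not tested. Without the 28 °C liver library 234 members stayed liver-enriched, and the cold condition could not be applied. No paired analysis was possible because each tissue and temperature had 1 library and the labels give no fish. Depth limits the members with few reads: 40 had under 10 reads in liver at 28 °C, 17 at 18 °C and 39 at 10 °C.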
